A study of Mus musculus with 6 samples.

Results

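Fc receptors and the genes of ITAM signalling were examined in mouse liver on 2 diets. The set holds 10 genes: the activating receptors Fcgr1, Fcgr3, Fcgr4 and Trem2, the adaptors Fcer1g and Tyrobp, the kinase Syk, the inhibitory receptors Fcgr2b and Sirpa, and the neonatal Fc receptor Fcgrt. They were chosen by gene name among the array's non-control probes, and they make up 10 of the 19616 features that could be tested. By name 9 of them were found, and Syk, which the array's annotation calls Sykb, was found by its RefSeq accession. Each of the 10 genes has 1 probe, and each probe was well above background on all 6 arrays and saturated on none.

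The liver came from outside the tumours of 6 male C57BL/6 mice, 3 on a control diet and 3 on a diet moderately restricted in carbohydrate (called control and restricted mice here), which were 5 weeks old at the start. Mice of both groups carried the same cancer model, a transposon vector with HrasG12V (an activated human oncogene), shp53 (a hairpin RNA against p53) and GFP4, delivered by hydrodynamic tail vein injection. No group without the vector was analysed here, so the values below compare diets within the cancer model. The promoters of the vector are not given in the sources used here. The sources differ on the feeding, with 1 week before and 5 weeks of diet in the sample labels against 2 weeks and 4 weeks in the series text. They also differ on the diet's name, MCDmp (a formula with added phytochemicals) in the series text and MCD (carbohydrate restriction) in the sample labels. The sample titles call the diets of both groups supplemented, without naming the supplement.

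Receptors of this family read antibodies and other ligands on the surface of macrophages and related cells. An activating Fc receptor has almost no signalling tail of its own and pairs with the adaptor Fcer1g, whose ITAM (immunoreceptor tyrosine-based activation motif) is phosphorylated by Src family kinases and then binds the kinase Syk. Tyrobp is the equivalent adaptor of Trem2 and of many other myeloid receptors. Inhibitory receptors carry an ITIM in their own tail, which recruits phosphatases that oppose Syk signalling. In the liver the resident macrophages, the Kupffer cells, and the sinusoidal endothelium clear immune complexes through Fc gamma receptors. Fcgrt is named an Fc receptor for its ligand only: it resembles MHC class I, has no ITAM or ITIM, and salvages IgG and albumin inside hepatocytes, endothelium and macrophages.

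The start regions of the 3 activating Fc gamma receptor genes and of the inhibitory Fcgr2b are shown because these receptors are set against each other below. Each sequence is the 250 bases before the annotated gene start, read 5′ to 3′ on the gene's strand from RefSeq tables of GRCm38.p6. Capitals mark the PU box GAGGAA, the core of the site of the myeloid factor PU.1, which here lies on the opposite strand and therefore reads TTCCTC. The Fcgr1 window is chr3:96293970-96294219 (minus strand), that of Fcgr3 is chr1:171059404-171059653 (minus), that of Fcgr4 is chr1:171018676-171018925 (plus) and that of Fcgr2b is chr1:170976072-170976321 (minus).
Fcgr1: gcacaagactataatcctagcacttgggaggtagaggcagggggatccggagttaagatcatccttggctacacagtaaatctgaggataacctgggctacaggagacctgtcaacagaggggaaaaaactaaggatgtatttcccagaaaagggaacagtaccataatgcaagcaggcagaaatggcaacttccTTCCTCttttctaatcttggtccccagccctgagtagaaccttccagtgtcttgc
Fcgr3: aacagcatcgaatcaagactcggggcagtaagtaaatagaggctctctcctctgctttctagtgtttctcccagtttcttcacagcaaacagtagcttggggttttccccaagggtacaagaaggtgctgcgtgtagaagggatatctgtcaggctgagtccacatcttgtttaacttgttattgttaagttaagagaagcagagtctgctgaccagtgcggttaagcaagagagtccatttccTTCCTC
Fcgr4: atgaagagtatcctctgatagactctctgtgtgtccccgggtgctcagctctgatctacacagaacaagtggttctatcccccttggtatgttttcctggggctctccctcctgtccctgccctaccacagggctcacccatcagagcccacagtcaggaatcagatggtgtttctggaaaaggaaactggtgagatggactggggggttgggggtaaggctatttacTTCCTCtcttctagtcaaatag
Fcgr2b: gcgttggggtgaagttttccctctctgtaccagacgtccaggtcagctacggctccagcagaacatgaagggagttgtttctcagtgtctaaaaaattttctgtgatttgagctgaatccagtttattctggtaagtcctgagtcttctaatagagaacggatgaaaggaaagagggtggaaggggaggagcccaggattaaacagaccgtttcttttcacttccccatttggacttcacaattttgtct
The 3 activating receptor genes hold the PU box once each, at bases 55 to 50 before the start of Fcgr1, 6 to 1 before Fcgr3 and 22 to 17 before Fcgr4, and the Fcgr2b window holds none. Of the 10 genes, 8 had a promoter entry. GAGGAA on either strand was found in 4 of these 8 (Fcgr1, Fcgr3, Fcgr4 and Trem2, in the last at bases 40 to 35) and was not in the windows of Fcer1g, Fcgr2b, Fcgrt and Syk, and 23.1% of 27025 promoters of the same length hold it. The gamma-activated sequence TTCNNNGAA, searched on both strands, was in 1 of the 8, Fcgr1, at bases 109 to 101 before the start, against 7.18% of all promoters. Where they overlap the 2 motifs were counted separately. The longest run shared by the Fcgr1 and Fcgr3 windows is TTCCTTCCTC, which contains the PU box and occurs in 102 of the 27025 promoters (0.377%). These matches describe letters and were not tested for use as sites.

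3 probes are shown in lower case for the points that bear on reading their values: Tyrobp, whose probe crosses an intron, Fcgr3, which has a close relative in Fcgr2b, and Fcgrt, whose values ran apart from the rest. On mm9, the build of the array files, they lie at chr7:31200651-31202378 (plus strand), chr1:172984129-172984188 (minus) and chr7:52350556-52350615 (minus).
Tyrobp: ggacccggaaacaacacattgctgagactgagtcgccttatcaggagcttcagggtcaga
Fcgr3: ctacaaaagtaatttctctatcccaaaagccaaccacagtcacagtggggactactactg
Fcgrt: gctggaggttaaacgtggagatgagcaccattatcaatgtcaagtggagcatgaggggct
The 60 bases of the Tyrobp probe span 1728 bases of the genome, so the probe joins separate exons of the processed transcript. Whether the Fcgr3 probe also binds Fcgr2b transcripts, whose outer domains are close in sequence, was not checked here.

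Values below are log2 processed signals minus the 75th percentile of their array, so that a value of 0 equals that percentile, and each mouse has 1 array. The 75th percentile of signal was 287 to 574 over the arrays, and 23527 to 25816 of 39429 probes were well above background. The number of arrays limits the precision. Arrays of the same diet correlated across features at 0.976 to 0.988, and arrays of different diets at 0.925 to 0.947. Slide 1 held the 3 control mice and restricted mouse 1, and slide 2 held restricted mice 2 and 3. Differences between diets were tested by limma, with the Benjamini-Hochberg adjustment over all 19616 features, and a gene was called where the adjusted p was under 0.05. Levels of different probes were not compared with each other, since probes differ in how brightly they bind.

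Of the 10 genes, 9 were lower in the restricted mice and none was higher, with Fcgrt the gene that did not pass the test. Among all features 12.8% were called lower and 14.6% higher. These shares are the background for every count of called genes below. All restricted mice were below all control mice for the same 9 genes, as they were for 18.8% of all features. The median difference of the 10 genes was -2.59 on the log2 scale, beside 0.12 for all features. In these bulk tissue samples fewer cells of a type and less RNA per cell cannot be told apart. Differences below are restricted minus control, with the SE of the fit.

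**Figure D1:**
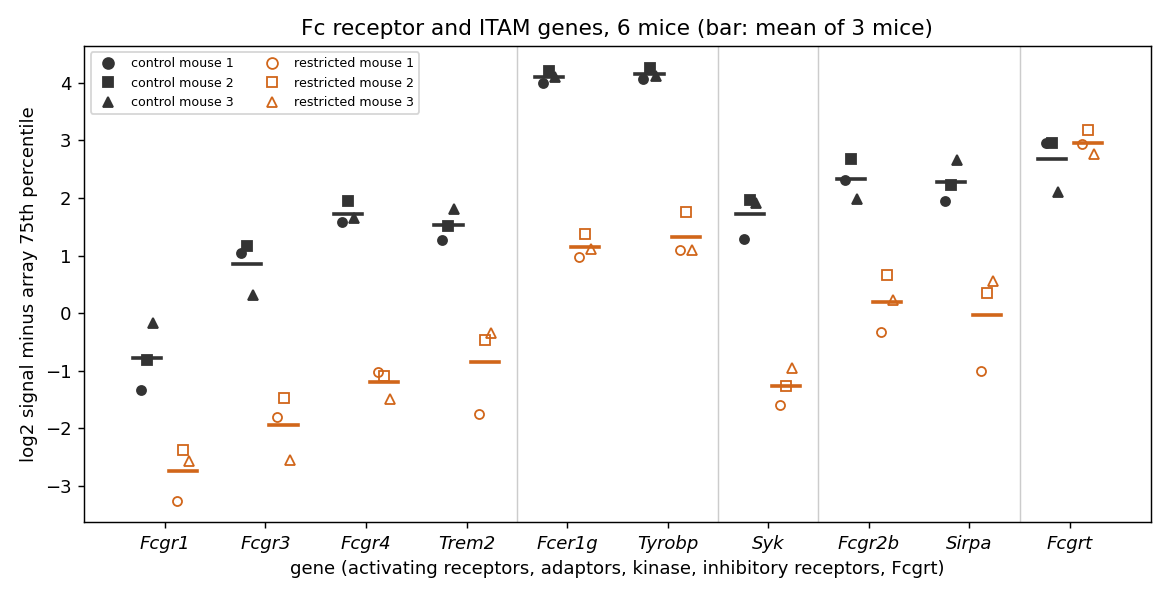
Log2 signal minus the array's 75th percentile (vertical axis) of the 10 genes (horizontal axis, by role) in each of 3 control and 3 restricted mice, with a bar at each diet's mean. The restricted mice lie below the control mice for 9 genes, by a gap of 1.04 for Fcgr1 to 2.61 for Fcer1g, and the diets overlap for Fcgrt.

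The activating receptors of IgG were lower in the restricted mice, with Fcgr4 and Fcgr3 further apart between diets than Fcgr1. Fcgr4, an activating receptor for IgG of selected subclasses, measured 1.58, 1.94 and 1.66 in control mice 1, 2 and 3 and -1.02, -1.09 and -1.49 in restricted mice 1, 2 and 3. The control mice lay close together, the restricted mice likewise, and a gap of 2.60 separated them. The difference was -2.93 ± 0.20 (adjusted p = 0.000335), or 7.62-fold lower with a 95% interval of 5.46 to 10.6. Fcgr3, the low affinity activating receptor that binds immune complexes, measured 1.05, 1.17 and 0.32 in the control mice and -1.81, -1.48 and -2.54 in the restricted mice. Mouse 3 was the lowest of each group, and the groups stayed 1.80 apart. Fcgr3 fell by 2.79 ± 0.34 on the log2 scale (adjusted p = 0.00166), a 6.93-fold difference (3.95 to 12.2).

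Fcgr1, the high affinity receptor that can hold single IgG molecules, had the smallest decrease of the 9 genes and the widest spread among control mice. Its values were -1.34, -0.81 and -0.18 in the control mice and -3.25, -2.38 and -2.57 in the restricted mice. Control mouse 1 was the lowest control and restricted mouse 1 the lowest of all, and 1.04 separated the groups. The difference was -1.96 ± 0.36 (adjusted p = 0.00777), or 3.88-fold lower (2.17 to 6.95). A larger decrease was seen for 5.58% of all features. With normexp background correction, which adds an offset of 50 and so compresses dim probes, it was -1.16, still called. The Fcgr1 probe lies on mm9 at chr3:96086839-96086898 (minus strand).

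Trem2, a receptor for lipids and lipoproteins that signals through Tyrobp, is the activating member that is no Fc receptor. Its probe (mm9 chr17:48491537-48491596, plus strand) measured 1.27, 1.51 and 1.80 in the control mice and -1.75, -0.46 and -0.34 in the restricted mice. Restricted mouse 1 was well below the other restricted mice, and all of them were below the controls by at least 1.61. Trem2 was lower by -2.38 ± 0.39 (adjusted p = 0.00511), or 5.20-fold (2.76 to 9.82).

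Both adaptors were lower, and their values were nearly parallel across the mice. Fcer1g, the common gamma chain on which Fcgr1, Fcgr3 and Fcgr4 depend for the cell surface and for signalling, measured 3.99, 4.21 and 4.09 in the control mice and 0.97, 1.38 and 1.11 in the restricted mice. The mice of each diet lay within a narrow band, and the bands were 2.61 apart. Its difference was -2.95 ± 0.18 (adjusted p = 0.000303), a 7.70-fold decrease (5.73 to 10.4) from a probe at mm9 chr1:173159794-173159853 (minus strand). Tyrobp measured 4.07, 4.26 and 4.11 in the control mice and 1.09, 1.76 and 1.10 in the restricted mice. Restricted mouse 2 was the highest of its group for both adaptors. Tyrobp differed by -2.83 ± 0.23 (adjusted p = 0.000439), 7.13-fold lower (4.92 to 10.3). After each gene's own mean was removed, the profiles of Fcer1g and Tyrobp differed by a root mean square of 0.127 log2 units over the 6 arrays, and among the pairs of the 10 genes only Trem2 and Sirpa were closer, at 0.083.

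Syk, the kinase that docks on phosphorylated ITAMs, had the largest decrease of the 10 genes at the settings used throughout, close to Fcer1g (-2.95) and Fcgr4 (-2.93). With normexp correction the decreases of Fcer1g (-2.88) and Tyrobp (-2.80) were larger than that of Syk (-2.60). Syk measured 1.28, 1.96 and 1.92 in the control mice and -1.60, -1.26 and -0.94 in the restricted mice. Mouse 1 was the lowest of each group, and the groups were 2.23 apart. The difference was -2.99 ± 0.26 (adjusted p = 0.000568), 7.93-fold lower (5.15 to 12.2). Among all features 1.71% had a larger decrease. The Syk probe is at mm9 chr13:52744088-52744147 (plus strand).

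The inhibitory receptors were lower as well. Fcgr2b, the inhibitory IgG receptor of macrophages, B cells and sinusoidal endothelium, measured 2.32, 2.69 and 1.99 in the control mice and -0.32, 0.66 and 0.23 in the restricted mice. Restricted mouse 1 was the lowest, and the groups were 1.33 apart. The difference was -2.14 ± 0.30 (adjusted p = 0.00286), 4.41-fold lower (2.69 to 7.21). This probe (mm9 chr1:172890988-172891047, minus strand) is printed 10 times on each array. The SD between its spots, which covers spot noise on 1 hybridisation only, was 0.020 to 0.067 per array. The SD between mice was 0.35 in the control group and 0.49 in the restricted group.

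Sirpa, the ITIM receptor of myeloid cells whose ligand Cd47 marks healthy cells against phagocytosis, measured 1.94, 2.22 and 2.66 in the control mice and -1.0, 0.35 and 0.57 in the restricted mice. It had the widest spread among restricted mice of the 9 lower genes (SD 0.85), with mouse 1 far below the others. Its difference was -2.30 ± 0.43 (adjusted p = 0.00844), 4.93-fold lower (2.45 to 9.92), and the groups were 1.38 apart. The Sirpa probe lies at mm9 chr2:129457873-129457932 (plus strand). Of the 9 lower genes, 7 had their lowest value in restricted mouse 1, and Fcgr3 and Fcgr4 had theirs in restricted mouse 3.

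Fcgrt did not follow the other Fc receptors. Its values were 2.96, 2.95 and 2.11 in the control mice and 2.93, 3.18 and 2.76 in the restricted mice. Control mouse 3 was the lowest, and the ranges of the diets overlapped. The difference was 0.29 ± 0.27 (adjusted p = 0.475) with a 95% interval of -0.36 to 0.93, which covers a small decrease and an increase of nearly 1 log2 unit. Its difference stayed between 0.0060 and 0.43 over 18 other ways of processing and was not called in any of them.

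The slide moves with the diet in part, since slide 2 held restricted mice alone. With slide as a block the differences of the 9 lower genes ran from -3.32 to -2.48, and their adjusted p from 0.00214 to 0.0203. That fit draws its difference from slide 1, where restricted mouse 1 stands against the 3 control mice. On slide 1 alone the adjusted p was 0.00520 to 0.0327, with the lone restricted mouse taken to vary like the controls. All 9 genes were called lower in each of the 18 alternatives, leaving out each mouse in turn included.

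**Figure D2:**
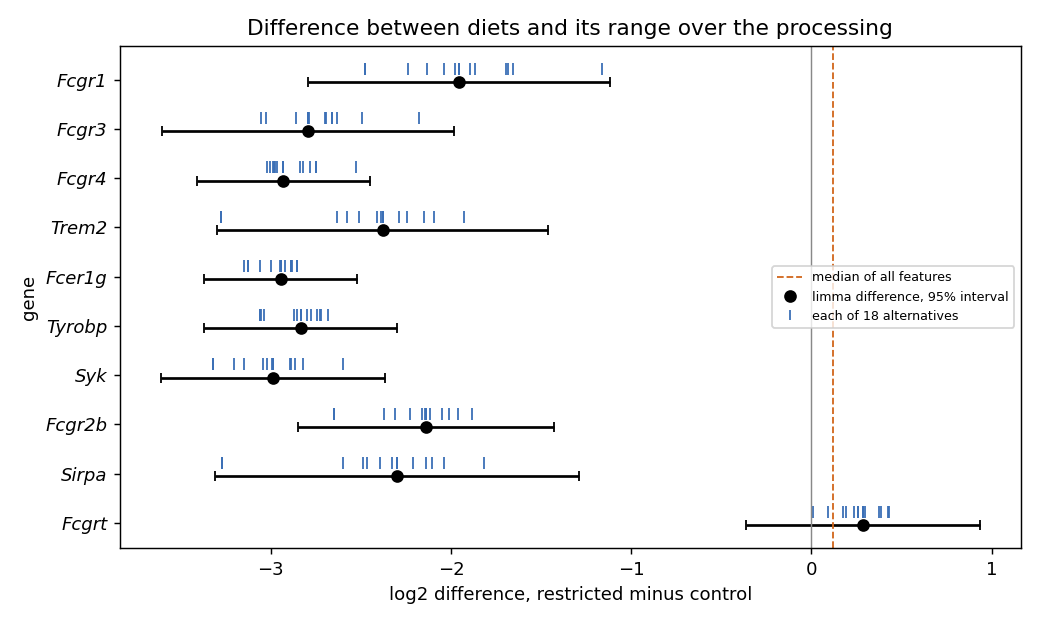
Difference between diets on the log2 scale (horizontal axis, restricted minus control) for each of the 10 genes, with the 95% interval of the fit as a bar, a blue tick for each of 18 alternatives and a dashed line at the median of all features, 0.12. The ticks of 9 genes lie left of -1, with Fcgr1 ranging from -2.48 to -1.16, and those of Fcgrt lie between 0.0060 and 0.43.

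Activating and inhibitory receptors were set against each other within each array, to ask whether the balance of the 2 kinds differed between diets. Each of Fcgr1, Fcgr3 and Fcgr4 was compared with each of Fcgr2b and Sirpa. In none of the 6 ratios, at the settings used throughout, did all restricted mice lie above or below all control mice. By the exact two-sided permutation test the p-values were 0.3 to 0.9, and 0.6 to 0.9 after adjustment over the 6 pairs, where 3 against 3 mice cannot go below 0.1. In 4 pairs the activating receptor had the larger decrease and in 2, both with Fcgr1, the inhibitory one.

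At the settings used throughout, the change furthest from 0 was that of Fcgr4 relative to Fcgr2b, at -0.79 (exact permutation p = 0.3, n = 3 per diet). Centred on the control mean, this log2 ratio was -0.13, -0.14 and 0.27 in the control mice and -0.10, -1.15 and -1.12 in the restricted mice. Restricted mice 2 and 3 lay below the controls and restricted mouse 1 lay among them. The 9 differences between a restricted and a control mouse ran from -1.42 to 0.038. For Fcgr3 relative to Fcgr2b the change was -0.65 (exact permutation p = 0.3), with mouse differences from -1.51 to 0.17, and restricted mouse 1 again lay among the controls.

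Relative to Sirpa, the change was -0.63 for Fcgr4 (exact permutation p = 0.4) and -0.49 for Fcgr3 (exact permutation p = 0.7). Within slide 1 both turned sign, to 0.52 and 0.61, so the direction of these ratios rests on the restricted mice of slide 2. The changes for Fcgr1 were 0.18 relative to Fcgr2b (exact permutation p = 0.9) and 0.34 relative to Sirpa (exact permutation p = 0.3). With normexp background correction they were 0.85 (exact permutation p = 0.2) and 0.97 (exact permutation p = 0.1, the smallest possible), the latter with no overlap between the diets. As first given, mouse differences ran from -0.87 to 0.86 for the first and from -0.30 to 1.03 for the second, so a change of either sign in the balance remains within the spread of these mice.

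**Figure D3:**
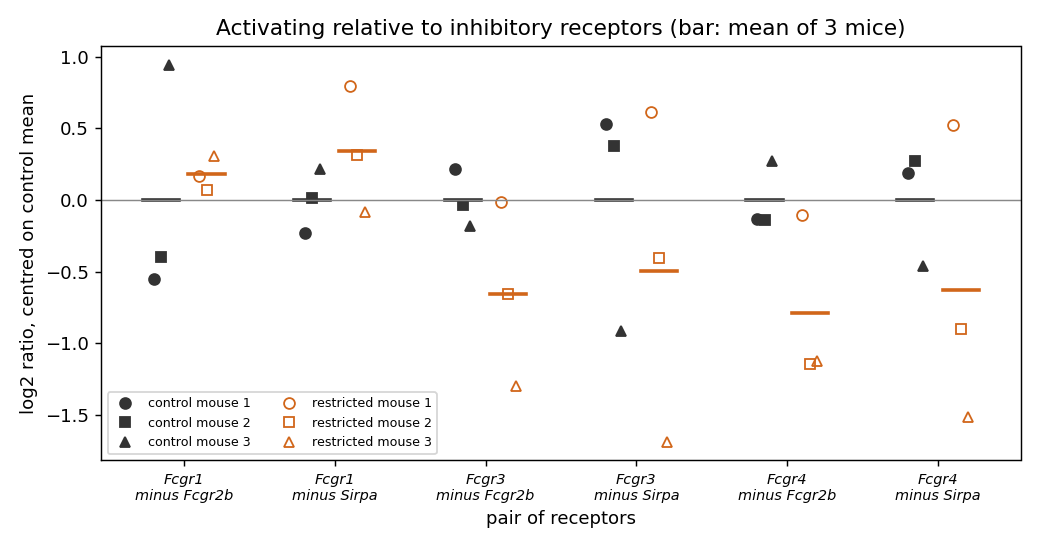
Log2 ratio of an activating to an inhibitory receptor in each mouse, centred on the control mean (vertical axis), for the 6 pairs (horizontal axis), with a bar at each diet's mean. The restricted mice overlap or straddle the control mice in every pair, and restricted mouse 1 is the highest restricted mouse in the pairs of Fcgr3 and Fcgr4.

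The genes around these receptors in the pathway moved the same way where they were called. Of 22 tested genes that act downstream of an ITAM, 16 were lower and none was higher (median -1.95), against 12.8% of all features called lower. Lower were Vav1, an exchange factor for small GTPases (-2.51 ± 0.16, adjusted p = 0.000332), Pik3r5, a regulatory subunit of PI3-kinase gamma (-3.38 ± 0.22, adjusted p = 0.000333), and the kinases Btk (-2.60 ± 0.19, adjusted p = 0.000379) and Fgr (-2.74 ± 0.20, adjusted p = 0.000379). Fgr and Lyn (-1.24) are Src family kinases, which phosphorylate the ITAM. Not called were Blnk, Sh3bp2, Lcp2, Bcl10, Nfatc1 and Pik3ap1, with differences from -1.34 to 0.22.

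A list made mostly of other myeloid receptors that use Fcer1g, Tyrobp or an ITAM-like motif of their own held 15 tested genes. Of these, 12 were lower and none was higher (median -2.48), counting Treml1 (-1.84), whose coupling was not checked. Sirpb1a, a Tyrobp-coupled relative of Sirpa, had a difference of -3.30 ± 0.16 (adjusted p = 0.000247). Clec4n, the Fcer1g-coupled lectin also called Dectin-2, had -3.61 ± 0.25 (adjusted p = 0.000335), and Pira2, an activating receptor that pairs with Fcer1g, had -2.67 ± 0.27 (adjusted p = 0.000878). Trem3, a Tyrobp-coupled receptor, was not well above background in any restricted mouse and was at least 2.63-fold lower (adjusted p = 0.000590), a call lost with normexp correction. Such a bound sets the control mean against the lowest signal well above background on the restricted arrays, at the settings used throughout. With normexp correction the Trem3 difference was -0.48. Not called were Clec9a (-0.50), Trem1 (-0.16) and Siglech, saturated on all arrays. With slide as a block, 8 genes of the list were called lower, and with normexp correction the median was -0.71.

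The ITAM chains of the antigen receptors, which lymphocytes use in place of Fcer1g and Tyrobp, were near the threshold. Of 5 tested, 2 were lower, Cd3d (-1.33 ± 0.40, adjusted p = 0.0468) and Cd3g (-1.46 ± 0.45, adjusted p = 0.0498). Neither was called after normexp correction, or when control mouse 2, control mouse 3 or any 1 restricted mouse was left out, and Cd3d was not called without control mouse 1. Cd3e (0.32), Cd247 (0.45) and Cd79b (-0.79) did not pass. With slide as a block Cd79b was called lower (-1.82, adjusted p = 0.0430).

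Inhibitory receptors other than Fcgr2b and Sirpa, together with the phosphatases and adaptors that ITIMs recruit, counted 9 lower and none higher of 19 tested (median -0.98). Lilrb4a, an ITIM receptor of myeloid cells, had a difference of -4.04 ± 0.24 (adjusted p = 0.000273). Its relative Pirb had -2.58 ± 0.19 (adjusted p = 0.000353). Dok2, an adaptor that dampens kinase signalling, was lower by -3.95 ± 0.36 (adjusted p = 0.000606), and Inpp5d, the lipid phosphatase that Fcgr2b recruits, by -2.66 ± 0.25 (adjusted p = 0.000670). Ptpn6, the phosphatase of Sirpa in myeloid cells, had a smaller decrease (-0.98 ± 0.25, adjusted p = 0.0266), not called with slide as a block. Ptpn11, its widely expressed relative, had -0.064 (adjusted p = 0.813), and the B cell receptor Cd22 had -0.032 (adjusted p = 0.933).

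Fc receptors and Fc receptor-like genes outside the main set were mostly not called. Of 8 tested, 1 was lower, Fcrls, an Fc receptor-like gene (-1.96 ± 0.23, adjusted p = 0.00135), and none was higher (median 0.048). That is 12.5% called lower, near the 12.8% of all features. Among ligands and partners 2 of 7 were lower. They were Apcs, serum amyloid P, which binds Fc gamma receptors (-3.28 ± 0.58, adjusted p = 0.00699), and Jchain, which joins units of IgA and IgM (-1.77 ± 0.34, adjusted p = 0.00963). With slide as a block Apcs was not called (-2.41, adjusted p = 0.0769). B2m, the light chain that Fcgrt requires, had 0.40 ± 0.17 (adjusted p = 0.125), and Cd47, the ligand of Sirpa, had -0.081 ± 0.20 (adjusted p = 0.801). Alb, a cargo of Fcgrt, and Apoe, a ligand of Trem2, were saturated on all arrays.

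Markers of macrophages moved with these receptors, and their part in the result was not tested. All 15 macrophage and Kupffer cell markers tested were lower (median -2.22). Their summed signal, in units of the array's 75th percentile, was 244.0 to 321 in the control mice and 46.9 to 66.1 in the restricted mice, and none of the 15 was dim on any array. Marco, a scavenger receptor, had a difference of -3.55 ± 0.33 (adjusted p = 0.000626), and Vsig4, which binds complement on Kupffer cells, had -2.78 ± 0.26 (adjusted p = 0.000675). Clec4f, a lectin of Kupffer cells, had -2.24 ± 0.22 (adjusted p = 0.000778), and C1qc, a chain of complement C1q, had -2.37 ± 0.23 (adjusted p = 0.000771). The differences of the 9 lower genes, -2.99 to -1.96, lie within the range of these markers, -3.55 to -1.42.

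Monocyte markers were lower in 3 of 5 (median -2.06), among them Ccr2, the chemokine receptor that brings monocytes into tissue (-4.03 ± 0.53, adjusted p = 0.00212), Itgal (-2.40 ± 0.25, adjusted p = 0.000874) and Spn (-2.06 ± 0.21, adjusted p = 0.000914). Itgam, which is not specific to monocytes, had 0.48 (adjusted p = 0.458), and Cx3cr1 had -0.68 (adjusted p = 0.551). How specific Itgal and Spn are to monocytes was not checked. The summed signal of the list overlapped between diets (15.9 to 37.6 in control mice, 20.1 to 43.3 in restricted mice). Most of that sum came from Itgam, with mean log2 signals of 4.22 in control and 4.71 in restricted mice. The other tested monocyte markers had means of 0.59 or lower in both diets. Neutrophil markers were lower in 6 of 10 and higher in 1 (median -3.73). With slide as a block 4 were lower and none was higher (median -1.29), and with normexp correction the median was -2.24. Ltf, a granule protein, was at least 26.4-fold lower (adjusted p = 0.000822) with no restricted mouse well above background, and Camp had -3.57 ± 0.40 (adjusted p = 0.00118). Mpo and Ngp were well above background in 1 of 3 restricted mice, and against the same floor they were at least 21.6-fold (adjusted p = 0.00143) and 17.0-fold lower (adjusted p = 0.00351). The other Mpo probe differed less, by -2.62. The bounds for Ltf, Mpo and Ngp apply only to the settings used throughout. With normexp correction the differences were smaller, at -2.44 for Ltf, -2.28 for Mpo and -2.21 for Ngp. Elane was higher by 0.67 ± 0.18 (adjusted p = 0.0350), a call that was lost with slide as a block (adjusted p = 0.0895). The summed neutrophil signal was 151.7 to 185.6 in the control mice and 91.4 to 134.6 in the restricted mice. Most of the sum in the restricted mice came from Csf3r, which was not called (0.030, adjusted p = 0.940), and without it the sum was 30.7 to 107.5 in the control mice and 4.41 to 26.9 in the restricted mice.

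Dendritic cell markers were lower in 3 of 6 (median -1.28). They were the integrin Itgax (-4.77 ± 0.53, adjusted p = 0.00118), the growth factor receptor Flt3 (-2.07 ± 0.24, adjusted p = 0.00131) and the lectin Cd209a (-3.70 ± 0.58, adjusted p = 0.00442). Zbtb46 (-0.35, adjusted p = 0.203), Clec9a (-0.50, adjusted p = 0.333) and Siglech were not called. The summed signal of the list, Siglech left out as saturated, was 8.66 to 11.4 in the control mice and 0.56 to 1.18 in the restricted mice. Most of the sum in the control mice came from Itgax, with mean log2 signals of 2.95 in control and -1.82 in restricted mice. NK cell markers were lower in 1 of 4, Klrd1 (-2.36 ± 0.32, adjusted p = 0.00262), and the defining markers Ncr1, Klrb1c, Klrk1 and Eomes were too dim to be tested. T cell markers were lower in 2 of 4, the Cd3d and Cd3g given above. None of 4 B cell markers was called (median -0.078), Cd79b (lower with slide as a block, as above, where the list median was -0.74) and Fcer2a (0.46, adjusted p = 0.290) among them, and Cd79a and Pax5 were among those too dim. Of the mast cell and basophil markers 2 were tested and neither was called, Kit (-0.66, adjusted p = 0.349) and Hdc (-0.81, adjusted p = 0.407), and Fcer1a, Ms4a2, Cpa3 and Mcpt8 were too dim.

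Markers of sinusoidal endothelium and hepatocytes, in which Fcgr2b and Fcgrt also occur, were higher or not called. Of 12 sinusoidal endothelial markers 7 were higher and none was lower (median 1.03), beside 14.6% of all features called higher. Their summed signal was 26.8 to 40.4 in the control mice and 46.6 to 60.7 in the restricted mice. Oit3 had a difference of 2.08 ± 0.30 (adjusted p = 0.00300) and the lectin Clec4g 1.86 ± 0.27 (adjusted p = 0.00319). The nuclease Dnase1l3 had 1.53 ± 0.34 (adjusted p = 0.0163), a call lost with slide as a block (1.10, adjusted p = 0.167). Flt4, dim in 1 control mouse, was at least 2.30-fold higher at the settings used throughout (adjusted p = 0.00763). With normexp correction Flt4 was not called (0.52, adjusted p = 0.103). Stab2 had -0.20 (adjusted p = 0.417). With slide as a block 4 of the 12 were called higher, and on slide 1 alone 1 was. Hepatocyte markers, all 10 well above background on every array, included none that was called (median 0.35), and 7 of them were saturated on at least 1 array. Those of smallest p were Apoa1 (-0.61, adjusted p = 0.0938) and Cps1 (1.07, adjusted p = 0.102).

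**Figure D4:**
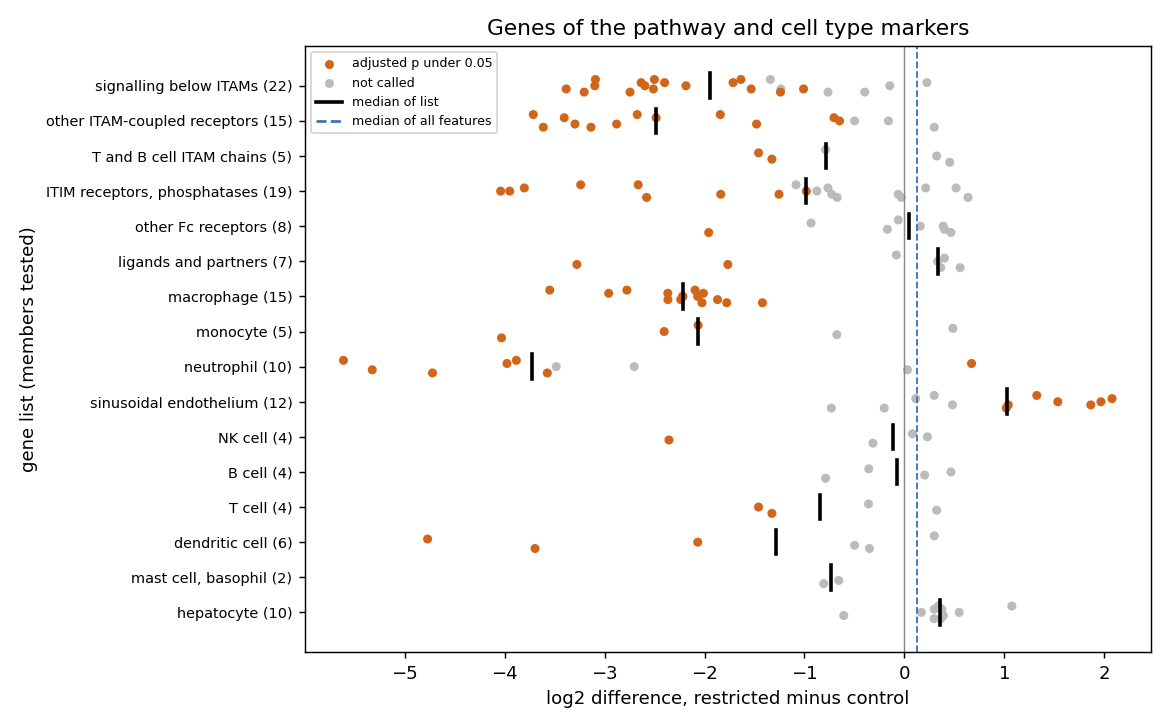
Log2 difference between diets (horizontal axis, restricted minus control) of each tested gene in the pathway and cell type lists (vertical axis, with the number tested), coloured where the adjusted p was under 0.05, with each list's median as a black bar and the median of all features as a dashed line. All 15 macrophage markers lie left of -1.4, and the sinusoidal endothelial markers that were called lie right of 1.

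4 of the 10 genes lie in 1 stretch of chromosome 1, in which Fcgr2b, Fcgr4, Fcgr3 and Fcer1g have probes within 269 kb (mm9 chr1:172890988-173159853). The genes near every member were therefore looked at, with a window of 50 kb on mm9 that was chosen with these data known. Of 32 neighbours tested, 9 were lower and 3 were higher (median -0.31), beside 12.8% and 14.6% of all features. Around Fcer1g the neighbours with gene names were not called. They included Apoa2, an apolipoprotein of hepatocytes 3.35 kb away (0.40 ± 0.26, adjusted p = 0.304), Nr1i3, a nuclear receptor of hepatocytes (0.62 ± 0.35, adjusted p = 0.234), and Tomm40l, a mitochondrial import gene (0.082 ± 0.21, adjusted p = 0.805). Near Fcer1g, 2 features that the array names only by a transcript number were called, 1 higher (1.21) and 1 lower (-2.74, not called with slide as a block). The Fcer1g difference itself was -2.95.

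Neighbours of the other adaptor and of Trem2 included further immune genes. Hcst, the adaptor also called DAP10 whose probe lies 0.358 kb from that of Tyrobp, had -1.86 ± 0.20 (adjusted p = 0.00107). Nfkbid, an inhibitor of NF-kappaB 11.4 kb from Tyrobp, had -1.67 ± 0.24 (adjusted p = 0.00295). Treml1 and Treml2, relatives of Trem2 in the same cluster, had -1.84 ± 0.24 (adjusted p = 0.00194) and -2.95 ± 0.42 (adjusted p = 0.00295). The restricted mean of Treml2, -6.26, lay below the lowest signal well above background on every restricted array (-5.12 to -4.80). The size of the Treml2 difference is therefore uncertain, and with normexp correction it was -0.44 and not called. Near Fcgrt, 7 of 8 neighbours were not called, and Prrg2 was higher by 0.71 ± 0.20 (adjusted p = 0.0365), a call lost with slide as a block. The histone genes H2bc18 (-2.17 ± 0.32, adjusted p = 0.00362) and H3c14 (-1.26 ± 0.27, adjusted p = 0.0142) near Fcgr1 were also lower. So were 2900076A13Rik near Sirpa (-1.97 ± 0.27, adjusted p = 0.00257) and B430306N03Rik near Trem2 (-2.26 ± 0.28, adjusted p = 0.00180). H2ac18 near Fcgr1 was higher (0.79 ± 0.21, adjusted p = 0.0295), a call lost with slide as a block. All these neighbours were named after their values were seen.

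**Figure D5:**
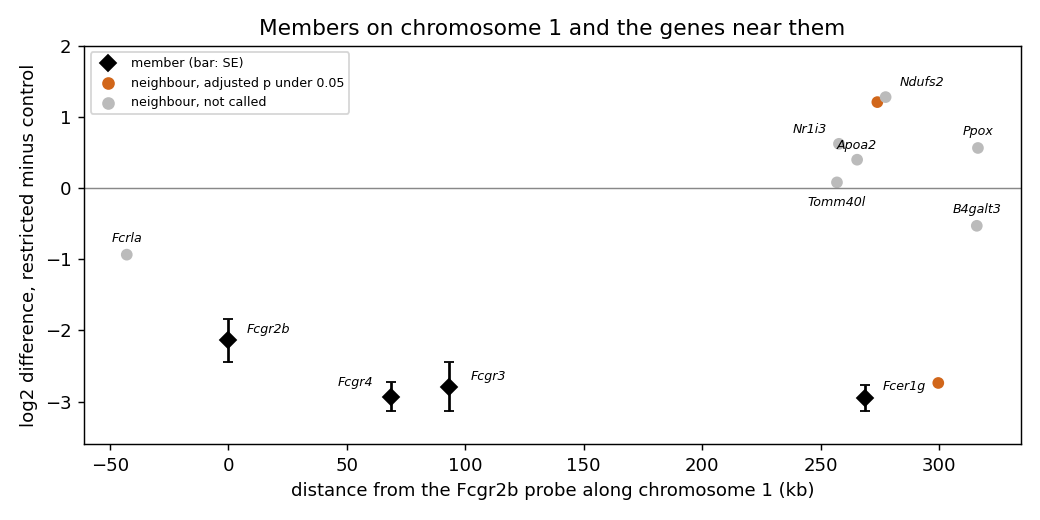
Log2 difference between diets (vertical axis, restricted minus control) of the 4 genes on chromosome 1 and of the tested genes near them, against distance from the Fcgr2b probe in kb (horizontal axis), with bars showing the SE of the 4 genes. The 4 genes lie between -2.95 and -2.14, and the named neighbours of Fcer1g lie between -0.53 and 1.28.

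The genes whose profile over the 6 arrays was most like that of 3 of the genes were found by the root mean square distance of mean-centred values among 13873 named features. For Fcer1g these were Selplg (distance 0.085), the selectin ligand of leukocytes, with a difference of -2.88, and then Tm6sf1 (0.101, difference -2.83) and Fabp7 (0.101, difference -3.02). For Fcgr2b they were B4galt6 (0.051, difference -2.17), Adgre4 (0.098, difference -2.22) and the macrophage scavenger receptor Msr1 (0.101, difference -2.22). For Fcgrt they included Commd3 (0.065, difference 0.32) and Yipf3 (0.069, difference 0.18), neither of which was called. All these distances come from the same 6 arrays.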

How the data were processed

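RNA from non-tumour liver of 6 mice was hybridised to 1-colour Agilent arrays (probe coordinates on mm9), 1 array per mouse. The authors' deposited intensity values are processed signals from Agilent Feature Extraction, version 10.7.3.1 per the file headers and 9.3.2.1 per the submitters' processing notes. The authors' deposited table of values holds the same intensities within 0.1% for 99.67% to 99.77% of probes (column medians 27.5 to 52.1, linear and not centred).

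Outlier spots were left out (127 to 251 of 43020), spots of a probe averaged, log2 taken and each array's 75th percentile subtracted. Of 39429 probes 24234 passed a filter (well above background in every measured mouse of 1 diet or both), and the brightest probe per gene gave 19616 features. By RefSeq accession 26055 probes took a current symbol, and 3358 names changed. Diets were compared with limma 3.58.1 in R 4.3.3 with data.table (version 1.17.8), checked on simulated data, and receptor pairs with exact permutation tests. The 10 genes, the 16 gene lists and the tests were chosen with earlier results of these data known. Of 173 list entries 3 had no probe and 22 were too dim. Genes named were all members, up to 4 called genes per list with the smallest p (2 where none was called) and the 3 nearest profiles of Fcer1g, Fcgr2b and Fcgrt. Other genes were named after their values were seen, and some genes are not reported here. Each array is a separate mouse. Exon annotation on mm9 was not used here.

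Alternatives were normexp background correction, quantile and median scaling, the authors' own values, other background filters, each probe on its own, array weights, trend with robust moderation, slide or mouse number as a block, slide 1 alone and each mouse left out.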

Additional observations from a re-analysis of the deposited data

How the results depend on the processing

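All 9 members called lower stayed so in each alternative, mice left out in turn included (9 in every setting), and among these 9 only Fcgr1 moved by over 1.5 times (-1.16 with normexp correction against -1.96). Counts over all features moved more. Features called lower were 2518, and 1586 on slide 1 alone, with 1770 to 2583 when 1 mouse was left out. Features called higher were 2868, and 4863 with array weights, 1121 with slide as a block and 837 on slide 1 alone, with 1583 to 3304 when 1 mouse was left out. The lowest of these counts without a mouse were seen without control mouse 2 (1592 higher) and without restricted mouse 2 (1583 higher), and 1729 were higher without control mouse 1.

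Of the 6 ratios of activating to inhibitory receptors, 3 turned sign in some setting and the other 3 kept it. On slide 1 alone Fcgr3 relative to Sirpa was 0.61 and Fcgr4 relative to Sirpa 0.52. With 1 mouse left out, Fcgr1 relative to Fcgr2b ran from -0.093 to 0.65 and Fcgr3 relative to Sirpa from -1.04 to 0.10. The ranges were 0.12 to 0.56 for Fcgr1 relative to Sirpa, -0.97 to -0.33 for Fcgr3 relative to Fcgr2b, -1.13 to -0.61 for Fcgr4 relative to Fcgr2b and -1.21 to -0.19 for Fcgr4 relative to Sirpa. The cause was not tested.

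Mouse numbers were not taken as pairs in the main fit. Deviations of same-numbered mice correlated at 0.384, -0.00224 and 0.482 for mice 1, 2 and 3. Those of differently numbered mice correlated at -0.499 to 0.118, so a shared structure by number is not excluded. With mouse number as a replicate block, 2972 features were lower, 3651 were higher and 9 members were lower, and no receptor pair could go below p = 0.25 by exact sign changes.

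Several gene lists depended on the processing. Other ITAM receptors called lower ranged from 8 to 12 and neutrophil markers from 3 to 8 over the alternatives, T cell markers and lymphocyte ITAM chains from 0 to 3 each, and with normexp correction the median was -0.99 for the ITAM downstream genes, -1.32 for monocyte, -0.56 for dendritic and 0.51 for sinusoidal endothelial markers. On slide 1 alone Lyn was not called. Saturated probes limit the hepatocyte markers. Probes near background limit Trem3, Ltf, Mpo, Ngp and Flt4 to bounds, which apply only to the settings used throughout. The restricted mean of Treml2 also lay below that floor, and no bound is given for it.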
